A study of Homo sapiens with 64 samples.

Results

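The replication-dependent histone genes were followed through 4 sets of libraries from a study of fibrillarin (FBL), the methyltransferase of the box C/D small nucleolar ribonucleoprotein. Members were chosen by symbol alone, as every gene whose symbol begins with HIST1H, HIST2H, HIST3H or HIST4H. The rule gave 73 genes of the 26364 in the C4-2 gene table and of the 25207 in the HEK293T gene table. They comprise 6 linker (H1), 18 H2A, 20 H2B, 14 H3 and 15 H4 genes, of which 56 lie on chromosome 6, 16 on chromosome 1 and 1 on chromosome 12. HIST2H2BA, HIST2H2BC and HIST1H2APS1 are annotated as pseudogenes.

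The libraries came from C4-2, a human prostate cancer line grown in RPMI 1640 with fetal bovine serum, and from HEK293T, a human embryonic kidney line grown in DMEM. In C4-2, cells given a control siRNA (siCTRL) or an siRNA against FBL (siFBL) were sampled at 0, 3, 6 and 12 h, with 2 libraries a group. In HEK293T, cells given siCTRL, siFBL or an agent against NOP56 (siNOP56 in the sample names, shNOP56 in the design text), another core protein of the box C/D particle, were sampled at 0, 6, 12 and 24 h, also with 2 libraries a group. The stated aim of these courses was mRNA half-life, and the labels name no agent that stops transcription. RNA bound by an anti-FBL antibody (RNA immunoprecipitation, RIP) and its input were sequenced from siCTRL C4-2 cells, with 2 libraries each and no antibody control analysed here. SLAM-seq, in which 4-thiouridine (S4U) built into RNA over 24 h is chased with uridine and read as T>C changes in libraries of transcript 3′ ends, was done in siCTRL and siFBL C4-2 cells at 0, 6, 12 and 24 h with 2 libraries a group. All were labelled polyA RNA. Nothing in the labels says that libraries of one group came from separate cultures, so the p-values measure the spread between these libraries, which may be technical.

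Replication-dependent histone genes are compact, lack introns and supply the core and linker histones that package new DNA in S phase. Their main mRNAs carry no poly(A) tail and end just after a conserved stem-loop, which is bound by SLBP and cut by a complex holding the U7 small nuclear RNA. When replication stops, UPF1, the uridyl transferases and the exonuclease ERI1 help to remove these mRNAs. Some of the genes also give longer, polyadenylated transcripts, known from differentiated and tumour cells, and a poly(A) selection catches chiefly that form.

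The stem-loop sites are shown because they are what sets these mRNAs apart and because genes with an annotated site are named below. In annotated GENCODE transcripts (GRCh38), 30 of the 73 members held a histone stem-loop with paired arms, and its commonest form was found in 21 of 83129 protein-coding transcripts of all genes (0.025%). The 6 H1 genes had none, against 6 of 18 H2A, 11 of 20 H2B, 5 of 14 H3 and 8 of 15 H4 genes. These counts depend on how far the annotated transcripts run and do not show which genes lack a stem-loop. Many members without a match have short transcripts that may end before it, such as HIST1H1C (642 nt), HIST1H3A (411 nt) and HIST1H4A (312 nt). All 8 H4 stem-loops opened with GGCC and the 22 others with GGCT. Each site is printed 5′ to 3′ on the transcript's strand with 5 bases on either side, and the capitals mark the stem-loop.
HIST2H2BE: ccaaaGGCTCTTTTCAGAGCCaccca
HIST1H2AC: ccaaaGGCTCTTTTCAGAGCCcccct
HIST1H2BD: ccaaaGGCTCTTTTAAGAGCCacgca
HIST3H2A: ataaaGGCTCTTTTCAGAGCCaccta
HIST1H2BN: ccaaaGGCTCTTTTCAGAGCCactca
HIST1H4H: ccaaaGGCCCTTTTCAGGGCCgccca
HIST1H4I: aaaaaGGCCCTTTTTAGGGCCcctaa
The H4 sites differ from the others in both arms while the run of T in the loop is kept. The annotated transcript that ran farthest past its stem-loop did so by 1729 nt in HIST2H2BE, 1128 nt in HIST1H2AC and 1655 nt in HIST1H4H. It did so by 390 nt in HIST3H2A, 377 nt in HIST1H2BN, 212 nt in HIST1H4I and 39 nt in HIST1H2BD. Some annotated transcripts held no match, which was in 1 of 2 for HIST1H2BD, 2 of 3 for HIST1H2AC and 2 of 4 for HIST1H2BN. HIST1H2BK, HIST1H2BJ, HIST1H4C and HIST1H1C had no match within their annotated transcripts, which says only that the letters are not in the annotated stretch.

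The bases just before the start sites of 4 H2B genes are shown because their values after siFBL in C4-2 were not alike. HIST1H2BJ and HIST1H2BO were called lower and HIST2H2BE higher at some or all hours, while HIST1H2BK did not pass. No link between these bases and the changes was tested. The bases come from RefSeq (GRCh38.p14), which matched a promoter to 65 of the 73 members. The stretches are chr6:27132796-27132895 (minus strand) for HIST1H2BJ, chr1:149886683-149886782 (minus) for HIST2H2BE, chr6:27146859-27146958 (minus) for HIST1H2BK and chr6:27893325-27893424 (plus) for HIST1H2BO. Capitals mark CCAAT, the octamer ATTTGCAT and TATAAA.
HIST1H2BJ: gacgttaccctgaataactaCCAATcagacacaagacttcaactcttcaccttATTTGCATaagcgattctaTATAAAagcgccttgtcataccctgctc
HIST2H2BE: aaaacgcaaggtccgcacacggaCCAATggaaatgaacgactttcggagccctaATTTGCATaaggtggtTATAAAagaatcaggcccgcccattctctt
HIST1H2BK: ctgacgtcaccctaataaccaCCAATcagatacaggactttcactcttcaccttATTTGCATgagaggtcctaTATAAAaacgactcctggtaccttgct
HIST1H2BO: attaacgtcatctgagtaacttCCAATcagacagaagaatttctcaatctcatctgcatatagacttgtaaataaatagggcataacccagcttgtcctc
In HIST1H2BJ, HIST2H2BE and HIST1H2BK the octamer began 47, 46 and 46 bases before the start site and TATAAA began 28, 30 and 27 bases before it. HIST1H2BO had CCAAT alone in this stretch. Both strands of the 300 bases from 250 before to 50 after the start were searched, and matches to TATAAA on opposite strands can overlap. ATTTGCAT was in 40% of the members' windows against 1.77% of all 35116 windows. By family it was in 14 of 18 H2B, 11 of 16 H2A, 1 of 12 H3 and no H1 or H4 window. The H3 window is that of HIST1H3D, which has the same coordinates as the window of the H2A gene HIST1H2AD. Windows of H2A and H2B genes that face each other can overlap, so an octamer can be counted for both. TATAAA was in 66.2% against 11.5%, and CCAAT in 84.6% against 34.6%.

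In the C4-2 and HEK293T courses the levels of FBL, NOP56 and the prostate markers matched the labels. FBL was at 0.601 to 3.63 CPM (counts scaled to library size, here with TMM factors) in siFBL C4-2 libraries against 265 to 388 with siCTRL, and at 7.19 to 17.7 against 303 to 485 in HEK293T. In SLAM-seq, where its interval holds few reads, FBL had 0 to 2 reads in the 8 siFBL libraries (0 in 6 of them) and 2 to 54 with siCTRL. NOP56 was at 49.9 to 91.9 CPM with siNOP56 in HEK293T against 146 to 206. A list of 10 prostate markers, KLK3 among them, summed to 5844 to 10229 CPM in C4-2 and 9.45 to 47.7 in HEK293T, where KLK3 was at 0. A list of 10 HEK293T markers parted the lines less cleanly. It summed to 678 to 1301 CPM in HEK293T, where VIM alone had a median of 743, and 36.9 to 121 in C4-2. Of its genes 7 reached a median of 1 CPM in HEK293T and 5 in C4-2. Libraries held 22.9 to 33.3 M counts for RIP and input, 79.0 to 106.1 M for C4-2, 16 to 19.9 M for HEK293T and 14.3 to 60.3 M mapped reads for SLAM-seq. The 2 siFBL libraries of an hour in C4-2 differed more from each other (mean chi-square per gene 98.1 to 138) than the 2 siCTRL libraries (10.8 to 23.2), and member counts made up a larger share in siFBL library A than in library B at every hour. The C4-2 columns number the libraries of a group, given here as A and B in that order. Those numbers were not matched to single samples.

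The members were a small part of every library, and outside RIP and input a few genes carried most of their counts. Summed over the 73, they took 0.332% ± 0.00125 (SD, n = 2) of the counts in input, but 0.0352% ± 0.00102 in the siCTRL C4-2 libraries at 0 h and 0.00828% (mean of 2) in those of HEK293T. These are separately made tables, and the difference between them was not tested. In the C4-2 courses HIST1H2BK held 44.6% of all member counts, HIST1H1C 23.3% and HIST2H2BE 10.4%, and 14 genes held 95.4%. In HEK293T the order was HIST1H2BK (61.7%), HIST3H2A (10.2%) and HIST1H1C (5.97%). In RIP and input it was HIST1H3D (10.0%), HIST1H2BK (4.82%) and HIST1H4C (4.36%). In SLAM-seq HIST1H1C led with 41.8%, followed by HIST2H2BE with 16.1% and HIST1H2AC with 10.9%. These shares are of counts and are not scaled for transcript length. The H2B gene HIST1H2BK and the linker gene HIST1H1C were thus among the main contributors in both lines, while the H4 gene HIST1H4C, at 122 to 131 CPM in input, was at 0.611 and 1.53 CPM in the siCTRL C4-2 libraries at 0 h.

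Detection limited how many members could be tested. After the filter on low counts, 49 of 73 were tested for RIP, 54 for the C4-2 courses, 24 for HEK293T and 21 of the 67 with a SLAM-seq interval. At 1 CPM or more on average were 47, 18, 10 and 19 members. The 6 genes HIST2H2AA3, HIST2H2AA4, HIST2H3A, HIST2H3C, HIST2H4A and HIST2H4B had no count in any of the 44 libraries of the gene tables. They are near-identical copies: a median of 98.8% of their stretches of 50 bases occur in another annotated gene's transcript, against 0.421% for the other members. The same share was 100% for HIST1H3D, 86.3% for HIST1H2AM, 83.7% for HIST1H2AJ, 74.1% for HIST1H2BK and 4.65% for HIST1H2BJ. The counts of HIST1H3D, HIST1H2AM, HIST1H2AJ and HIST1H2BK are thus uncertain where reads could be split. Members also overlap or face each other closely, and no label or header used here says whether the counting used strand.

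Histone RNA was a far smaller share of the anti-FBL RIP than of its input. Member counts made up 0.332% of the input and 0.0605% ± 0.0023 (SD, n = 2) of the RIP, and 44 of the 49 tested members were lower and 2 higher by edgeR's quasi-likelihood test (adjusted p below 0.05). This has to be read against a comparison in which 82.9% of all 14967 genes tested passed, 43% lower and 39.9% higher. The median member was at -1.84 on the log2 scale and the median gene at -0.11. By family, all 13 tested H2A genes were lower (median -2.49), with 15 of 16 H2B genes (-1.69), 7 of 8 H3 genes (-1.57) and 7 of 8 H4 genes (-1.16). Of the 4 tested H1 genes 2 were lower and 1 higher (median -0.19), from HIST1H1T at -1.92 (adjusted p = 0.0112) to HIST1H1B at 0.17. The difference between families was not tested.

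**Figure D1:**
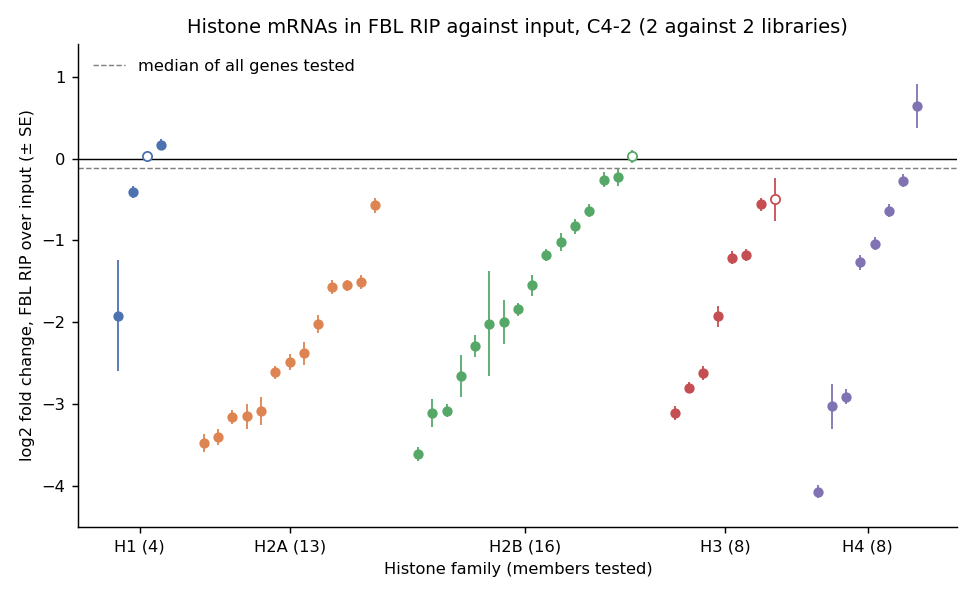
Log2 ratio of RIP over input (vertical axis, bars 1 SE) for each tested member, grouped by histone family; filled points passed the test and the dashed line is the median of all genes, -0.11. The H2A points all lie below that line, and the H1 points run from -1.92 to 0.17.

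The lowest ratios were found in core histone genes. HIST1H4C, an H4 gene (chr6:26103876-26104310, plus strand), was at 131 and 122 CPM in the inputs and 7.79 and 7.22 in the RIPs, a log2 ratio of -4.07 (SE 0.08, adjusted p = 8.43e-27). The H2B gene HIST1H2BJ (chr6:27125897-27132750, minus strand) went from 77.3 and 84.0 to 6.95 and 6.26 CPM, -3.61 (SE 0.09, adjusted p = 4.21e-25). In both genes the input and RIP libraries are about an order of magnitude apart and the pairs close together. The next lowest were HIST1H2AJ (-3.48), HIST2H2AB (-3.4), HIST1H2AB (-3.16), HIST3H2A (-3.15), HIST1H3A (-3.11), HIST3H2BB (-3.11), HIST1H2AE (-3.09) and HIST1H2BL (-3.08), all of which passed the test. HIST1H3D, the member with the most counts here, was at 279 and 269 CPM in input and 38.4 and 40.4 in RIP.

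Among 5 of the members on a list of genes known for polyadenylated transcripts the ratios spread widely. HIST1H2AC, an H2A gene, was at 83.7 and 89.3 CPM in input and 13.9 and 14.5 in RIP (-2.61, adjusted p = 2.5e-23). HIST1H2BK was at 147 and 85.2 against 43.6 and 35.7 CPM (-1.55, adjusted p = 5.68e-12), its inputs being less alike than those of the other genes named. HIST1H2BD was at 46.7 and 58.0 against 31.1 and 27.6 CPM (-0.83), and HIST1H1C at 72.4 and 68.3 against 52.8 and 52.9 (-0.41, adjusted p = 1.37e-06). HIST2H2BE, the H2B gene with the longest run past its stem-loop among those printed, was alike in both: 31.6 and 35.4 CPM in input and 33.9 and 34.4 in RIP, a log2 ratio of 0.03 (adjusted p = 0.724). These 5 genes thus ranged from well below the input to level with it. Of all 9 tested members on that list 8 were lower and 0 higher, with a median of -1.55, where 43% of all genes were lower. The lowest of the 9 were HIST1H2BJ (-3.61) and HIST1H2BG (-2.66).

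Both members that were higher in RIP rose by little. The linker gene HIST1H1B was at 57.7 and 62.3 CPM in input and 65.4 and 69.7 in RIP (0.17, adjusted p = 0.0202), and the H4 gene HIST1H4I at 1.09 and 0.978 against 1.67 and 1.55 (0.64, adjusted p = 0.0284). The HIST1H1B call was lost without RIP library 2 (adjusted p = 0.0843), without input library 1 (0.262) and with no filter on low counts (0.063). The HIST1H4I call was lost without RIP library 1 (0.136), RIP library 2 (0.0749) or input library 2 (0.0974) and with DESeq2 (0.12).

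The mRNAs of proteins that make, bind and handle histones went both ways in RIP. Of all genes tested 39.9% were higher and 43% lower, and several of the lists below lie near these shares. The difference between the lists and the members was not tested. Of 26 tested genes for histone mRNA transcription and end formation, 15 were higher and 11 lower (median 0.30), with CASP8AP2, a histone locus body protein, at 2.73 and LSM10, a U7 particle subunit, at -2.12. Of 24 histone chaperones 19 were higher and 5 lower (median 1.14), with ATRX at 3.52 and ASF1A at -2.39. Of 20 decay genes 11 were higher and 8 lower (0.28), led by SMG1 at 3.72 and LSM2 at -3.34. Of 31 S-phase genes 18 were higher and 11 lower (0.78), with POLA1 at 2.19 and PCNA at -2.29. Of 10 variant or replication-independent histone genes 5 were higher and 4 lower (0.08), with the linker variant H1F0 at 1.68 and the centromeric H3 variant CENPA at -2.25. FBL's own mRNA was at 0.33.

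After siFBL in C4-2, few histone genes passed the test, and they did not move one way. Of 54 tested members, 3 fell and none rose at 0 h, against 6.87% of all genes that fell and 1.61% that rose (8.48% in either direction). At 3 h 2 rose and 1 fell (all genes 2.98% and 8.94%, together 11.9%), and at 6 h 2 rose and 1 fell (2.13% and 6.92%, together 9.05%). At 12 h 1 rose and 6 fell (2.73% and 10.7%, together 13.4%). The members called, 5.56% at 0, 3 and 6 h and 13% at 12 h, are thus no larger a share than that of all genes. The median member was at -0.27, -0.22, -0.01 and -0.16 on the log2 scale at 0, 3, 6 and 12 h, against 0.04, 0.09, 0.00 and 0.00 for all genes. The split moved with the scaling or tool: at 12 h it was 2 up and 5 down with DESeq2-style size factors in edgeR, and DESeq2 gave 2 up and 2 down at 3 h, 2 up and 5 down at 6 h and 3 up and 6 down at 12 h. The counts rest on single libraries: 1 member was called at 0 h without siCTRL A, siCTRL B or siFBL B, at 3 h without siCTRL A or B, and at 6 h without siCTRL A or B. At 12 h 2 were called without siCTRL A or B and 4 without siFBL B.

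HIST1H2BJ was the member that fell at every hour. With siCTRL it stood at 4.05 and 4.08 CPM at 0 h, 4.32 and 5.37 at 3 h, 5.48 and 4.56 at 6 h, and 5.98 and 7.03 at 12 h. With siFBL it stood at 1.19 and 1.13, 1.49 and 1.05, 1.31 and 0.887, and 1.65 and 1.49 CPM at those hours. The 8 siFBL libraries all lay below the 8 siCTRL libraries, with no overlap. The share of all genes without overlap was not counted, and the gene was chosen with earlier results known, so this adds no support. The log2 differences were -1.81 (SE 0.29, adjusted p = 0.000707), -1.93 (adjusted p = 0.000377), -2.19 (adjusted p = 0.000147) and -2.05 (adjusted p = 0.000169). They passed the test under every alternative run for C4-2, each library left out in turn included. The hours share their siRNA groups but not their libraries. They may still not be independent, since member counts took a larger share in siFBL library A than in B at every hour.

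Other H2B genes rose or had differences that did not pass. HIST2H2BE (chr1:149884459-149886652, minus strand) was at 28.7 and 26.2 CPM with siCTRL and 44 and 33.7 with siFBL at 0 h, 28.4 and 29.5 against 48.7 and 39.2 at 3 h, 34.4 and 30.1 against 52.8 and 53.1 at 6 h, and 41.7 and 39.3 against 78.4 and 55.6 at 12 h. Both siFBL libraries exceeded both siCTRL libraries at each hour, which was not counted over all genes and adds no support. The differences were 0.50 (adjusted p = 0.109), 0.60 (0.0442), 0.72 (0.0229) and 0.73 (SE 0.18, adjusted p = 0.0157), so that it rose at 3, 6 and 12 h. Each of these calls was lost on leaving libraries out: at 3 h without any one of the 4 (adjusted p from 0.0503 to 0.239), at 6 h without any one of the 4 (0.0537 to 0.207), and at 12 h without siCTRL A (0.0818), siCTRL B (0.127) or siFBL A (0.0942). HIST1H2BK, the most abundant member, was at 166 and 148 CPM with siCTRL and 132 and 79.7 with siFBL at 0 h, a difference of -0.57 (adjusted p = 0.229), and at -0.53 (adjusted p = 0.242) at 12 h. The pair of siFBL libraries differed more from each other than the groups did. Without siFBL A the 12 h difference was -1.05 (adjusted p = 0.025). HIST1H2BD, at 9.03 and 7.51 against 11.0 and 8.28 CPM at 0 h, was at 0.22 (adjusted p = 0.604).

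**Figure D2:**
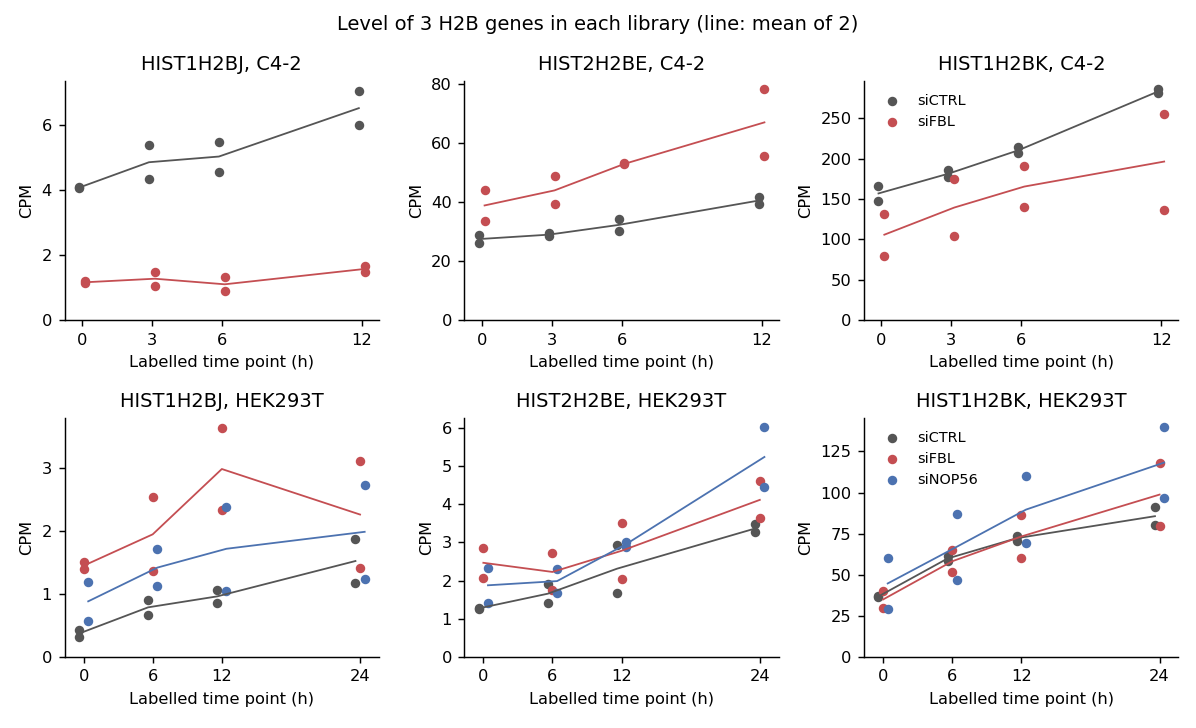
CPM (vertical axes) against labelled hour for HIST1H2BJ, HIST2H2BE and HIST1H2BK in C4-2 (top) and HEK293T (bottom); points are libraries, lines join the means of 2, and colours mark siCTRL (grey), siFBL (red) and siNOP56 (blue). In C4-2 the siFBL points of HIST1H2BJ stay between 0.887 and 1.65 CPM, below all siCTRL points, while those of HIST2H2BE lie above siCTRL at each hour.

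The H4 gene HIST1H4H also rose at the middle hours. It was at 2.84 and 2.44 CPM with siCTRL and 5.88 and 5.30 with siFBL at 3 h (1.08, SE 0.24, adjusted p = 0.00793), and at 2.88 and 3.10 against 6.13 and 6.48 at 6 h (1.08, adjusted p = 0.00928). At 0 and 12 h its differences, 0.63 (adjusted p = 0.12) and 0.72 (0.0584), did not pass. The 3 h call was lost without siCTRL A (0.0524) or siCTRL B (0.114), and the 6 h call without siCTRL A (0.109), siCTRL B (0.0776) or siFBL B (0.0508). HIST1H4C, which encodes the same H4 protein, was near the detection limit at 0 h (1.53 and 0.611 CPM with siCTRL, 0.274 and 0.241 with siFBL), and its difference of -2.05 did not pass (adjusted p = 0.237).

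At 12 h HIST2H2BC and HIST2H2AC fell beside HIST1H2BJ. HIST2H2BC, an H2B pseudogene on chromosome 1, was at 4.76 and 3.73 CPM with siCTRL and 1.68 and 1.02 with siFBL (-1.65, SE 0.32, adjusted p = 0.00268). HIST2H2AC, an H2A gene, was at 5.18 and 4.65 against 2.76 and 1.98 CPM (-1.05, SE 0.28, adjusted p = 0.0207), a call lost without siCTRL A (0.128), siCTRL B (0.0742) or siFBL B (0.165). In each gene both siFBL libraries lay below both siCTRL libraries, but the genes were picked for passing at this hour, so this adds no support.

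The other calls were in genes near 1 CPM or below, and they are named here after their values were seen. HIST1H2BO, an H2B gene (chr6:27893463-27893843, plus strand), was at 1.05 and 1.15 CPM with siCTRL and 0.198 and 0.037 with siFBL at 0 h (-3.21, SE 0.78, adjusted p = 0.0173), and at 2.15 and 1.54 against 0.625 and 0.126 at 12 h (-2.30, adjusted p = 0.0494). The 12 h call was lost without siCTRL A (0.195), siCTRL B (0.104) or siFBL B (0.305) and with DESeq2-style size factors (0.0543). At 3 and 6 h it was at -1.95 (adjusted p = 0.0931) and -2.16 (0.0786). HIST1H2AL, an H2A gene, was at 0.835 and 1.17 CPM with siCTRL and 0.17 and 0.204 with siFBL at 0 h (-2.41, adjusted p = 0.0404). At 12 h the linker gene HIST1H1B was at 1.06 and 1.01 against 0.18 and 0.161 CPM (-2.59, adjusted p = 0.0205) and the H3 gene HIST1H3E at 0.563 and 0.34 against 0.168 and 0.023 (-2.24, adjusted p = 0.0366). No group overlapped its control in these 4 genes at these hours, but they were picked for passing there, so this adds no support. These calls rest on single libraries: without siCTRL A, siCTRL B or siFBL B at 0 h HIST1H2BJ was the only member called, and without any one of those at 12 h the only members called lower were HIST1H2BJ and HIST2H2BC.

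The remaining genes followed throughout had differences that did not pass. The linker gene HIST1H1C was at 75.9 and 64.9 CPM with siCTRL and 58.0 and 35.7 with siFBL at 0 h (-0.59, adjusted p = 0.154), and at -0.57 at 12 h (adjusted p = 0.145). Without siFBL A the 12 h value was -0.96 (adjusted p = 0.022). HIST1H2AC was at 9.88 and 9.27 against 6.01 and 3.18 CPM at 0 h (-1.06, adjusted p = 0.184) and at -1.11 at 12 h (0.142). For both, library A of siFBL lay closer to siCTRL than library B.

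Several H2B genes face an H2A gene on the opposite strand, and the values within such pairs were alike in some and apart in others. HIST1H2BJ and HIST1H2AG start 292 nt apart, and at 0 h they were at -1.81 and -2.07 (adjusted p = 0.0623 for HIST1H2AG). HIST1H2BK and HIST1H2AH start 331 nt apart, and at 0 h they were at -0.57 and -0.60, neither of which passed. HIST2H2BE and HIST2H2AC start 323 nt apart, and at 12 h the former rose by 0.73 while the latter fell by 1.05 on the log2 scale. HIST1H2BO and HIST1H2AM start 314 nt apart, and at 0 h they were at -3.21 and -0.35 (adjusted p = 0.36 for HIST1H2AM).

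Many genes for histone supply outside the clusters fell in C4-2. At 0 h, where 6.87% of all genes fell, 30 of 31 S-phase genes fell (median -1.78), among them the cyclin gene CCNE2 (-2.50) and the replication initiation genes MCM10 (-2.45) and CDC6 (-2.37), and at 12 h, where 10.7% of all genes fell, 30 fell and 1 rose (-1.86). Of 24 chaperone genes 18 fell at 0 h (-1.0), including HJURP (-2.33), ASF1B (-2.16) and CHAF1B (-1.90). Of 26 transcription and end-formation genes 10 fell (-0.54), with SLBP, the stem-loop binder, at -1.33 (adjusted p = 6.18e-05) and ERI1 at -1.08. Of 20 decay genes 9 fell (-0.58), among them LSM2 (-1.08) and DCP2 (-1.01), and of 11 variant histone genes 6 fell (-0.73), led by CENPA (-2.38), H2AFX (-1.89) and H2AFZ (-1.08). None of the genes of these 5 lists rose at 0 h. SLBP, ERI1 and MCM2 stand on more than 1 list. Of the 54 members 3 fell, and of the 9 tested members on a list of genes known for polyadenylated forms only HIST1H2BJ fell. The difference between the lists was not tested, and the lists were drawn up with earlier results known. In bulk libraries fewer cells in S phase and less RNA in each cell cannot be told apart.

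In HEK293T hardly any member passed, in either direction. Of 24 tested members none was called at 0, 6 or 12 h after siFBL, where 1.74%, 6.63% and 10.9% of 14939 genes were called, and 1 rose at 24 h (8.96% of all genes rose and 6.11% fell, together 15.1%). Unadjusted p was below 0.05 for 6, 2, 4 and 4 members at 0, 6, 12 and 24 h, and DESeq2 called 1, 0, 1 and 0. The median member was at 0.42, 0.17, 0.30 and 0.58, above the medians of all genes (0.04, -0.01, 0.00 and 0.02). After siNOP56 none was called at 0, 6 or 12 h (0.187%, 0.683% and 1.53% of all genes; unadjusted p below 0.05 for 2, 0 and 1 members; DESeq2 called none) and 1 rose at 24 h (3.58% of all genes rose, 5.31% in either direction). The members' medians there were 0.25, 0.29, 0.29 and 0.46. siFBL and siNOP56 share the siCTRL libraries.

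The member called was HIST1H2BN, an H2B gene (chr6:27837760-27865798, plus strand) named after its values were seen. At 24 h it was at 0.361 and 0.492 CPM with siCTRL, 1.04 and 1.05 with siFBL (1.26, SE 0.36, adjusted p = 0.0363) and 1.05 and 1.34 with siNOP56 (1.46, adjusted p = 0.0288). Both knockdown groups lay above the control at that hour, but the gene was picked for passing there, so this adds no support. At 0 h the order was the other way, with 0.532 and 0.688 CPM with siCTRL and 0.277 and 0.235 with siFBL (-1.23, adjusted p = 0.138). No member was called for siFBL at 24 h without any one of the 4 libraries, nor for siNOP56 without siCTRL 1, siCTRL 2 or siNOP56 2, nor for either with DESeq2 or with no filter.

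HIST1H2BJ, which fell in C4-2, had higher means in the siFBL libraries of HEK293T, but its differences did not pass. It was at 0.31 and 0.43 CPM with siCTRL and 1.39 and 1.51 with siFBL at 0 h (1.94, SE 0.59, adjusted p = 0.0983), 0.904 and 0.671 against 2.54 and 1.36 at 6 h (1.30), 1.06 and 0.864 against 3.64 and 2.34 at 12 h (1.63, SE 0.52, adjusted p = 0.0557), and 1.88 and 1.17 against 3.11 and 1.42 at 24 h (0.58, adjusted p = 0.488). The groups did not overlap at 0, 6 and 12 h and did at 24 h, which was not counted over all genes and adds no support. DESeq2 called it at 0 h (adjusted p = 0.0375) and 12 h (0.031), and at 12 h it also passed with no filter (0.0403) and with a replicate block (0.0478). With siNOP56 it was at 0.576 and 1.19, 1.12 and 1.72, 1.05 and 2.39, and 1.24 and 2.74 CPM. At the shared hours these levels lay below those of C4-2 with siCTRL and above them with siFBL, but the tables were normalized separately.

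No difference passed among the other members followed in HEK293T. HIST1H2BK was at 36.7 and 36.8 CPM with siCTRL and 40.3 and 29.5 with siFBL at 0 h, -0.07 (adjusted p = 0.936), and at 0.21 (0.729) at 24 h. HIST2H2BE was at 1.29 and 1.25 against 2.86 and 2.07 CPM at 0 h, 0.96 (adjusted p = 0.171). HIST1H2BD was at 1.15 (adjusted p = 0.18), HIST1H1C at 0.71 (0.399), HIST1H2AC at 1.35 (0.408) and HIST1H4C at 0.59 (0.561) at 0 h. All but HIST1H2BK were thus higher with siFBL, by amounts that did not pass. Depth bears on these: a gene at 1 CPM has fewer than 20 counts in a HEK293T library. Of the 31 S-phase genes none was called at 0 h after siFBL, and 3 rose and 2 fell at 24 h. Of the 26 transcription and end-formation genes 3 rose at 24 h, namely ERI1 (0.78), FIP1L1 (0.77) and SRRT (0.68), beside 8.96% of all genes.

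**Figure D3:**
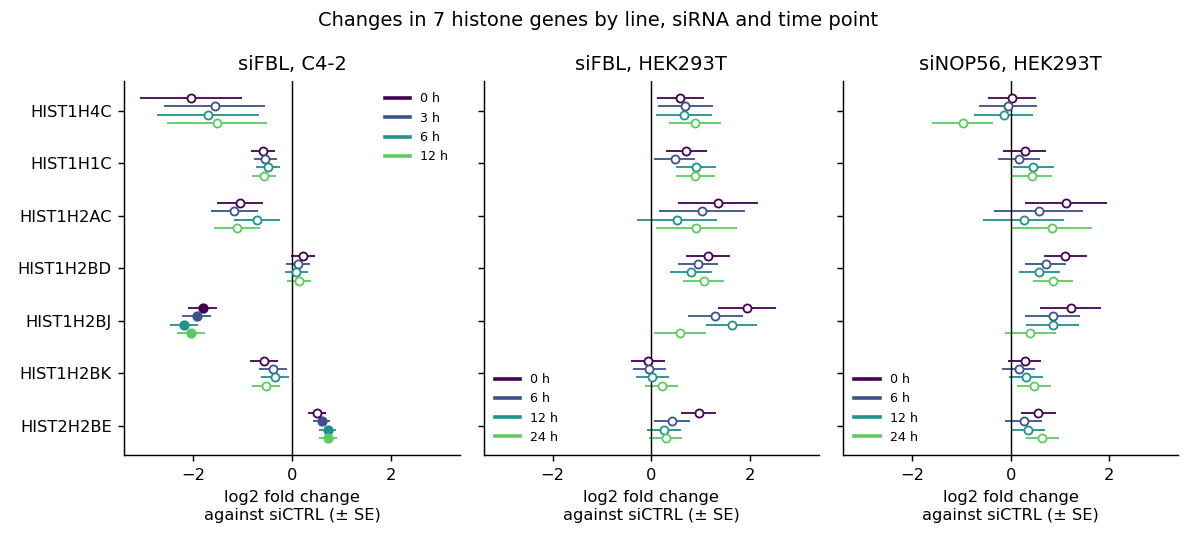
Log2 difference from siCTRL (horizontal axis, bars 1 SE) for the 7 genes followed in every comparison (vertical axis). The panels are siFBL in C4-2, siFBL in HEK293T and siNOP56 in HEK293T, with 1 colour per labelled hour. Filled symbols passed the test. HIST1H2BJ lies near -2 in C4-2 and above 0 in HEK293T, and no symbol in the HEK293T panels is filled.

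The siFBL effect on HIST1H2BJ differed between the lines. In a model of both courses, chosen after the data were seen, the C4-2 difference minus the HEK293T difference was -3.55 (SE 0.65, adjusted p = 0.000787) at 0 h, -3.30 (SE 0.62, adjusted p = 0.000856) at 6 h and -3.44 (SE 0.61, adjusted p = 0.000323) at 12 h on the log2 scale. It passed at 0 h with each library left out in turn. HIST1H2BN differed the other way, by 1.54 (SE 0.45, adjusted p = 0.0348) at 0 h and 1.67 (SE 0.42, adjusted p = 0.00797) at 12 h, the 0 h call being lost in 10 of its 11 alternatives. In C4-2 itself HIST1H2BN was at 1.47 and 1.73 CPM with siCTRL and 1.65 and 1.73 with siFBL at 0 h. HIST1H2BO differed by -3.38 (SE 0.87, adjusted p = 0.0164) at 0 h. In all, 1 member was higher and 2 lower of 37 at 0 h (7.49% of 17634 genes in either direction), none higher and 1 lower at 6 h (10%), and 1 higher and 1 lower at 12 h (14.7%). With DESeq2 the 0 h split was 0 and 2, and without HEK293T siCTRL 1 or siFBL 2 only 1 member, a lower one, was called. Cell line and sequencing set cannot be told apart.

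Over the hours of the courses several histone genes rose relative to the rest of the library, in C4-2 at a share near that of all genes. Slopes are in log2 CPM per labelled hour, so a rise means a slower loss than, or a gain over, the average transcript, and these cannot be told apart. With siCTRL in C4-2, 10 of 54 members rose (18.5%) and 1 fell (1.85%), against 15.4% and 18.6% of all genes. With siFBL 8 rose (14.8%) and 4 fell (7.41%), against 15.9% and 19.2% of all genes, or 10 and 3 with DESeq2-style size factors and 14 and 3 with DESeq2. All 8 that rose with siFBL also rose with siCTRL. The 10 called without siFBL were HIST1H2AJ (0.14), HIST2H2AC (0.12), HIST1H2AM (0.10), HIST1H1C (0.09), HIST1H2BC (0.09), HIST1H2BL (0.09), HIST1H2BK (0.07), HIST1H4H (0.07), HIST1H2BD (0.06) and HIST2H2BE (0.05). The H3 gene HIST1H3D fell (-0.10 with siCTRL, -0.09 with siFBL). Others among the abundant members did not pass with siCTRL, such as HIST1H2AC (0.05, adjusted p = 0.372) and HIST3H2A (0.03, 0.383). The siCTRL count was 7 without 0 h A, 0 h B or 12 h A. Of the 10 genes HIST1H1C, HIST1H2AM and HIST2H2AC passed under every alternative run, and each of the others lost its call without at least 1 library.

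The linker gene HIST1H1C shows the size of these rises. With siCTRL it went from 75.9 and 64.9 CPM at 0 h to 97.6 and 97.1 at 3 h, 130 and 118 at 6 h and 148 and 169 at 12 h. With siFBL it went from 58.0 and 35.7 to 132 and 81.5 CPM. The slopes were 0.09 (SE 0.02, adjusted p = 0.00103) and 0.10 (adjusted p = 0.000939). HIST1H2BK went from 166 and 148 to 281 and 286 CPM with siCTRL and from 132 and 79.7 to 256 and 137 with siFBL. In both genes every 12 h siCTRL library lay above every 0 h one, which was not counted over all genes. For HIST1H2BK siFBL B at 12 h was close to siFBL A at 0 h.

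With siFBL 4 members fell over the hours. Besides HIST1H3D these were the pseudogene HIST2H2BC (-0.08) and, named after their values were seen, HIST1H3E (-0.38, mean 0.89 CPM) and HIST1H2BB (-0.73, mean 0.0607 CPM). The slopes themselves were not shown to differ between siRNAs: by edgeR's quasi-likelihood test none of the 54 members passed for siFBL minus siCTRL in C4-2 (1 of 23437 genes, 0.00427%), with 6 at an unadjusted p below 0.05 and none by DESeq2.

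HEK293T showed the same direction over a longer course. Of 24 tested members 8 rose with siCTRL (33.3%), 11 with siFBL (45.8%) and 12 with siNOP56 (50%), and none fell, against 21.8%, 22.5% and 21.8% of all genes that rose and 28.3%, 29.2% and 29% that fell. The 5 members that rose under all 3 siRNAs were HIST1H1C, HIST1H2AM, HIST1H2BK, HIST1H2BO and HIST2H2BE. HIST1H1C, HIST1H2AM, HIST1H2BK and HIST2H2BE rose in all 5 sets of both lines, but each lost calls on leaving out a library. HIST1H1C lost that of HEK293T siCTRL without 0 h library 1 (adjusted p = 0.0894), 0 h library 2 (0.0644) or 24 h library 1 (0.11), and that of siNOP56 without 24 h library 2 (0.0628). HIST1H2AM lost that of siCTRL without any one of the 4 libraries at 0 and 24 h (0.0878 to 0.123), that of siFBL without 0 h library 1 or 2 or 24 h library 1 (0.0938 to 0.144), and that of siNOP56 without 24 h library 1 (0.0584). HIST1H2BK lost that of C4-2 siCTRL without 12 h B (0.0546), of C4-2 siFBL without 0 h B (0.075) or 12 h A (0.296), and of HEK293T siCTRL without 0 h library 1 (0.0574) or 2 (0.0567). HIST2H2BE lost that of C4-2 siCTRL without 12 h A (0.057) and of HEK293T siFBL without 0 h library 2, 6 h library 2 or either 24 h library (0.0512 to 0.272). HIST1H2BK went from 36.7 and 36.8 CPM at 0 h to 91.1 and 80.1 at 24 h with siCTRL (0.05 per hour) and from 40.3 and 29.5 to 118 and 79.5 with siFBL (0.06). HIST3H2A, an H2A gene with a stem-loop, went from 7.58 and 6.93 to 16.6 and 13.8 CPM with siCTRL (0.04, adjusted p = 0.000763). The siCTRL count was 3 without 0 h library 1, 4 without 0 h library 2 and 5 without 24 h library 1, and the siFBL count 7 without 0 h library 2. No slope difference from siCTRL passed for either knockdown (0% of 14939 genes; 1 and 0 members at an unadjusted p below 0.05; none by DESeq2).

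**Figure D4:**
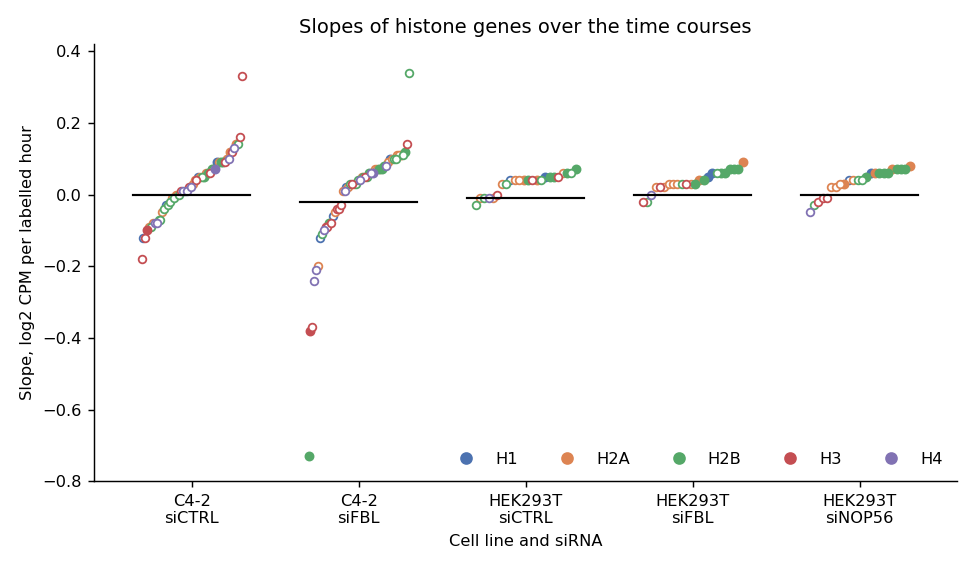
Slope in log2 CPM per labelled hour (vertical axis) for each tested member in 5 sets of line and siRNA; filled points passed the test and bars are the medians of all genes. In the 3 HEK293T sets all filled points lie above 0, and in C4-2 with siFBL the lowest filled point is HIST1H2BB at -0.73.

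In SLAM-seq no name in the deposited tables begins with HIST, and 67 members were found through their current RefSeq symbols. Total reads of the members in siFBL against siCTRL, with labelled hour in the model, gave no call among the 21 tested by edgeR's quasi-likelihood test (1.05% of 13130 genes were called), with 6 at an unadjusted p below 0.05 and 1 call by DESeq2. The median member was at -0.41 and the median gene at -0.02. With no filter on low counts 3 were lower, among them HIST1H2AC (-1.01) and HIST1H2BD (-0.86), and without the 4 libraries numbered 2 at labelled 0 and 12 h 1 was lower. The labelled hour in this model is in doubt: in 12 of the 16 SLAM-seq files the hour in the header differs from it, and the T>C shares given below go with the header. With each labelled hour and number as a block, within which both siRNAs have the same header hour, again none of the members was called.

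HIST1H1C ranged over 247 to 546 CPM (median 333) in the 8 siCTRL libraries and 193 to 324 (median 265) in the 8 siFBL libraries, a difference of -0.43 (adjusted p = 0.208). HIST1H2AC ranged over 31.2 to 242 (84.7) against 25.7 to 84.9 (52.5), -1.02 (adjusted p = 0.285), and HIST1H2BD over 43.5 to 206 (59.4) against 37.8 to 65.5 (44.8), -0.86 (0.267). The groups overlapped in all 3 genes. HIST2H2BE, which rose in the C4-2 course, was at 60.9 to 169 (149) against 63.1 to 141 (102), -0.45 (adjusted p = 0.323). HIST1H2BJ, which fell there, was at 10.5 to 23.2 (16.1) against 4.72 to 21 (14.6), -0.29 (0.735). Its SLAM-seq interval is the far end of the gene (chr6:27125897-27126462), and no label or header says which stretch the gene counts cover. HIST1H2BK had at most 0.415 CPM in any SLAM-seq library and was not tested.

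A pair of siCTRL libraries stood apart. Those numbered 2 at labelled 0 and 12 h held member reads at 928 and 902 CPM of mapped reads, against 412 to 526 in the other siCTRL libraries and 328 to 476 with siFBL. For these libraries the hour in the file header is 24. Hours below are the labelled ones, and no comparison of hours was made.

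The share of member reads with T>C changes was below that of all reads in 14 of 16 libraries. In siCTRL it was 46.4% (exact 95% interval 45.4 to 47.4) against 58.4% of all reads in library 1 at 0 h, 46.8% against 58.3% at 12 h, 15.3% against 21.3% at 6 h and 14.8% against 21.6% at 24 h. In the libraries numbered 2 it was 5.41% (5.04 to 5.81) against 10% at 0 h, 6.13% against 10.1% at 12 h, 25% against 33.6% at 6 h and 26.3% against 34.1% at 24 h. Among siFBL libraries it was 41.7% against 54.5% in library 1 at 0 h, 41.7% against 54.3% at 12 h, 13% against 18% at 6 h and 13% against 18.4% at 24 h. In siFBL libraries numbered 2 it was 21.9% against 29.5% at 6 h and 23.6% against 29.7% at 24 h. In the siFBL libraries numbered 2 at 0 and 12 h the order was turned, at 6.89% (6.49 to 7.31) against 5.01% and 6.90% (6.55 to 7.26) against 5.17%. Within each siRNA, libraries that share a header hour had like shares whatever their label. These shares do not allow for how many T a read covers. Of covered T, 8.02% were converted in members against 7.8% in all reads in siCTRL library 1 at 0 h. At 12 h siCTRL library 1 had 8.24% against 7.74%. By this measure members were also higher in siFBL libraries numbered 2 at 0 h (0.38% against 0.244%) and 12 h (0.362% against 0.253%). In all other libraries they were lower. HIST1H1C alone held 41.8% of member reads. The intervals cover counting error only, and PCR reads without molecular identifiers are not independent molecules.

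**Figure D5:**
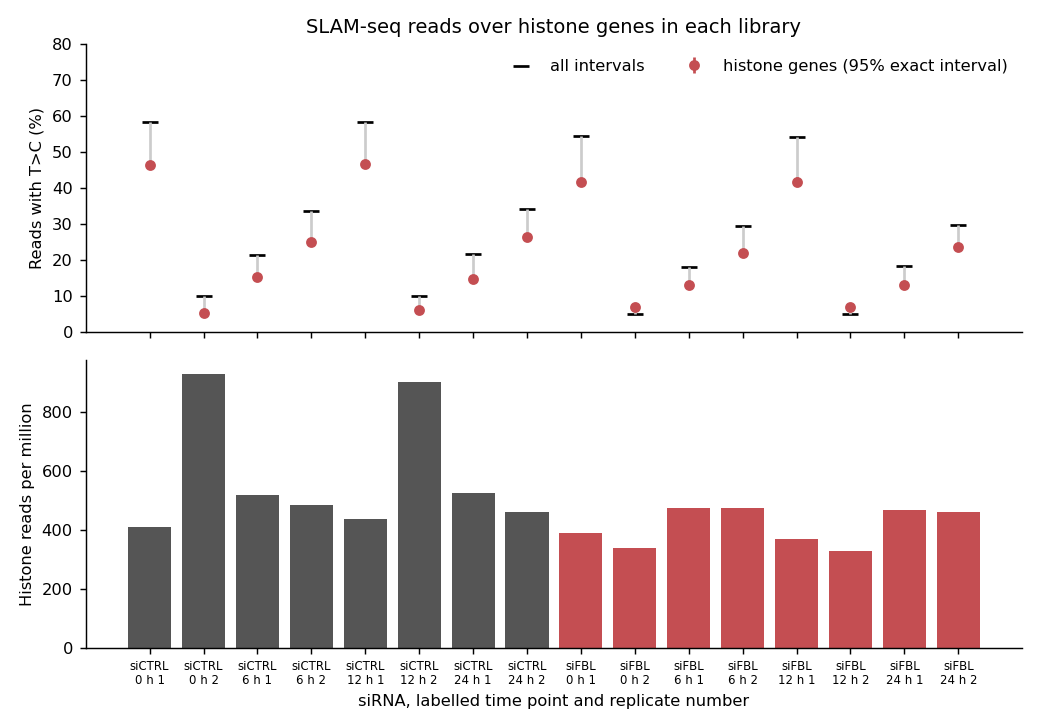
Top, percent of reads with T>C changes for the members (red, bars 95% interval) and for all intervals (black dashes) in each SLAM-seq library; bottom, summed member reads as CPM of mapped reads in the same libraries. Members lie below all reads except in siFBL libraries 2 at labelled 0 and 12 h, and siCTRL libraries 2 at those hours reach 928 and 902.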

How the data were processed

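Gene tables of RIP, C4-2 and HEK293T libraries hold whole-number counts per gene symbol as deposited. TopHat2 2.1.1 and HOMER are named for RIP, and hg38, GRCh38.p13 and hg19 for the tables, without a role, per the submitters' processing notes; further steps are not given in the labels. SLAM-seq tables hold counts of reads, T>C reads, covered T and conversions per interval, made with slamdunk per the file headers, after Trim Galore and on hg38 per the submitters' processing notes. The deposited reads-per-million column of these tables is treated as a score, since a read counts in each interval it overlaps; it was not used for tests.

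Counts were tested with edgeR 4.0.16 (R 4.3.3) by the quasi-likelihood test with TMM scaling and filterByExpr, fitted on all genes, with Benjamini-Hochberg adjustment over all genes tested and a threshold of 0.05. All 16 C4-2 or all 24 HEK293T libraries entered 1 fit with a mean per siRNA and hour, so they share 1 estimate of the spread. Slopes used an intercept and a slope over hours per siRNA, and the main fits treated each library as independent. SLAM-seq genes were taken by their interval with the most reads. The SE is the log2 value divided by the root of its F statistic. Fits were tested on simulated counts. Alternatives were DESeq2 1.42.0, its size factors in edgeR, no filter, a replicate block, the compared groups alone and each library left out. T>C shares carry exact (Clopper-Pearson) 95% intervals and no test. No libraries were identical. The 4 nanopore libraries were not analysed here.

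Members, gene lists and comparisons were chosen with earlier results of these data known. Genes named are 7 followed throughout, up to 10 called members per direction with a mean of at least 1 CPM, ranked by log2 value, and the highest in level; others are said to be named after their values were seen. The deviations of same-numbered libraries from their group means correlated at 0.02 for RIP with input and -0.06 to 0.10 across siRNAs in HEK293T, so these were not paired. For siCTRL with siFBL at the same labelled hour of SLAM-seq they correlated at 0.26 to 0.38, and the block by hour and number is given beside that result.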

Additional observations from a re-analysis of the deposited data

Results flagged for a closer look

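The effect of siFBL differed between the lines by a test of the difference itself, in the model of both courses, for 3 H2B genes. For HIST1H2BJ the C4-2 minus HEK293T value was -3.55 at 0 h, -3.30 at 6 h and -3.44 at 12 h on the log2 scale, with C4-2 means lower and HEK293T means higher under siFBL. For HIST1H2BN it was 1.54 at 0 h, a call lost under most alternatives, and 1.67 at 12 h. For HIST1H2BO it was -3.38 at 0 h, a call lost without HEK293T siCTRL 1 or siFBL 2. Members called were 8.11%, 2.7% and 5.41% of those tested at 0, 6 and 12 h. Of all genes 7.49%, 10% and 14.7% were called, so the members' share was near or below that of all genes.

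In SLAM-seq, where groups of 8 libraries with 1 siRNA allow Dixon's test, 44 groups were tested against the critical value of 0.526, and chance marks about 1 in 20 groups. Single libraries stood apart for 4 genes. They were HIST1H2AE at 3.65 CPM in siCTRL library 2 at labelled 0 h, HIST2H2BF at 4.32 CPM in siCTRL library 2 at 12 h, HIST1H2AJ at 1.81 CPM in siFBL library 2 at 12 h and HIST1H2BL at 1.90 CPM in siFBL library 2 at 24 h. The first pair are the siCTRL libraries whose member reads reach 928 and 902 CPM of mapped reads.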

How the results depend on the processing

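Of 2147 values of named genes under alternatives, 2027 kept their side of the threshold, 106 lost a call and 14 gained one. No called value changed sign, and 91 of those called neither way did. The RIP count of 46 stayed at 40 to 46. In C4-2 the siFBL counts of 3, 3, 3 and 7 became 6 at 0 h and 7 at 6 h with DESeq2 and 1 at 0 h with the 2 groups alone. With libraries left out they ran from 1 to 4, 1 to 4, 1 to 3 and 2 to 7. The line difference at 0 h, 3 members, ran from 1 to 3. The slope count of 11 with siCTRL ran from 7 to 11. In HEK293T the siFBL count of 0 became 1 at 0 h with DESeq2 and 1 at 12 h with DESeq2, with no filter or with a replicate block. The counts of 1 at 24 h became 0 with DESeq2 or no filter for siFBL and for siNOP56, and with libraries left out were 0 to 0 and 0 to 1. The slope counts of 8 with siCTRL and 11 with siFBL ran from 3 to 9 and from 7 to 14. The SLAM-seq count of 0 became 1 with DESeq2, 3 with no filter and 1 without the 4 libraries numbered 2 at labelled 0 and 12 h. The cause of these shifts was not tested.

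The replicate block left the RIP count at 46 and changed no call but that of HIST1H2BJ at 12 h and of the HIST1H2BD siCTRL slope (adjusted p = 0.0505) in HEK293T. No paired analysis was run for C4-2. Its columns number the libraries of a group, but those numbers were not matched to single samples. Within siFBL and siNOP56 of HEK293T, same-numbered libraries of different hours deviated together (r 0.63 to 0.69 and 0.44 to 0.60), a hint from the data and not the design. The replicate block is shared by all siRNAs, so it cannot take up deviations particular to an siRNA. The slopes and their differences thus still treat such libraries as independent. Limits are 2 libraries a group, low counts in HEK293T, shared reads among copies, and tables in which other genes set the scale.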
